A study of Rattus norvegicus with 18 samples.

Results

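The genes described here encode the collagens, laminins, fibulins, thrombospondins, glypicans and small leucine-rich proteoglycans of the extracellular matrix, with fibronectin, and the metalloproteinases that cut this matrix with their inhibitors. Members were the probe sets that the array annotation paired with exactly 1 gene symbol of the families Col, Lama, Lamb, Lamc, Mmp, Timp, Adamts, Thbs, Fbln and Gpc, or with Fn1, Bgn, Dcn or Lum. The choice used the symbol only and no measured value. It gave 139 probe sets for 99 genes, of 20826 probe sets with 1 symbol in the whole table. Of these, 92 probe sets for 72 genes had enough signal to be tested, and 27 genes did not.

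Distal and proximal colon had 9 arrays each, 1 per region from each of 9 rats (male, Sprague Dawley) with the numbers 1 to 8 and 10. Every rat was fed AIN-93G in a modified form for 10 days and received azoxymethane, a colon carcinogen that alkylates DNA, in 1 dose of 15 mg per kg under the skin, 6 h before it was killed. The mucosa was scraped over 4 cm of each region, after the outermost 0.5 cm of each end of the bowel had been discarded, and 4.5 µg of total RNA was used per Affymetrix array. Both groups thus shared strain, sex, diet, agent and time, no untreated rat was among the samples used here, and the values describe 2 regions of treated colon and not the effect of azoxymethane. The body weights and the 2 allocation groups of the design text could not be tied to single rats.

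Interstitial collagens assemble into fibrils that give a tissue its strength, and small proteoglycans such as lumican, decorin and biglycan bind to these fibrils. Collagen IV and the laminins form the basement membrane on which epithelial cells sit. Metalloproteinases of the Mmp and Adamts families cut these proteins, and the Timp proteins block them. In the colon, fibroblasts and smooth muscle cells make most of the interstitial matrix, while the epithelium makes part of the laminins.

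The values are log2(signal + 16) after quantile normalization of the deposited intensities, so that a difference of 1 is a doubling on this scale. A difference is distal minus proximal, a gene is represented by its probe set with the highest mean, and "passed" means an adjusted p under 0.05 in limma over all 21729 probe sets tested. Precision is limited by how many arrays there are. The labelled tissue was clear in the data: the summed signal of 20 epithelial marker genes ran from 121205 to 133838 in distal and from 134355 to 154366 in proximal arrays. Some markers of other cells also had enough signal to be tested, while others did not. No value in the whole table was 0 or below, so a signal above 0 does not show that a cell type was present. The deposited signal of the arrays differed in scale, with trimmed means between 210.3 and 341.2.

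Of the 18 arrays, 3 stood apart from the others. The mean log2 signal of 19 smooth muscle genes was 9.69 in the distal array of rat 3, 9.58 in the distal array of rat 7 and 11.80 in the proximal array of rat 3. It ran from 6.91 to 7.77 in the other 7 distal arrays and from 7.00 to 8.56 in the other 8 proximal arrays. Results that rest on these 3 arrays are given with and without them.

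Of the 72 genes tested, 7 were higher in distal colon, which were Thbs4, Timp2, Timp1, Adamts15, Gpc4, Col20a1 and Timp4. A further 6 were lower, which were Gpc2, Gpc3, Bgn, Col18a1, Lama3 and Col23a1. Over all 11407 genes tested, 16.2% were higher and 14.5% lower, against 9.72% and 8.33% of these matrix genes. By probe set, 8 members were higher and 6 lower of 92, where 14.3% of all probe sets were higher and 12.2% lower. The median difference was -0.17 over the 72 genes and 0.01 over all genes. The arrays of the regions did not overlap for 6 members, Thbs4, Timp1, Timp2, Adamts15, Gpc2 and Gpc3, and for 6.89% of all genes. The share of members called was thus below that of all genes in both directions, and that of members without overlap was close to it. With the rat as a block, 8 members were higher and 8 lower, against 19.5% and 17.4% of all genes, and with no filter on low signal 9 were higher and 5 lower of 99, against 12.5% and 11.5%. In scraped mucosa, fewer cells of a type and less RNA per cell cannot be told apart for any of these genes.

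The transcripts higher in distal colon included those of 3 of the 4 Timp inhibitors and of thrombospondin 4, a pentameric glycoprotein of the matrix that binds collagens. The stretches of sequence before and at the start of these genes are shown because they belong to the 3 members with the largest positive difference among the 72 tested genes, next to that of Col1a2, a fibrillar collagen chain whose signal varied mainly between arrays. They come from RefSeq on the rat build GRCr8, run 5′ to 3′ on the gene's strand from 250 bases before the start to 50 after it, and cover chr2:25760296-25760595 (Thbs4, minus strand), chrX:3771073-3771372 (Timp1, minus), chr10:104089165-104089464 (Timp2, minus) and chr4:33518307-33518606 (Col1a2, plus). Capitals mark matches, on either strand, to letters of common promoter elements. The GC box was searched as GGGCGG and its reverse complement. The CCAAT box was searched by the letters of its name and their reverse complement, and the TATA box as TATAAA and its reverse complement.
Thbs4: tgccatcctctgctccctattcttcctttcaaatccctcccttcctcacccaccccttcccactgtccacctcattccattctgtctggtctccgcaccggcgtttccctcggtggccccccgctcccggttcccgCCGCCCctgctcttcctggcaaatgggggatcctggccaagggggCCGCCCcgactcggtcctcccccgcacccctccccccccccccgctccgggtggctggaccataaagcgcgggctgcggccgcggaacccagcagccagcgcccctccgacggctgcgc
Timp1: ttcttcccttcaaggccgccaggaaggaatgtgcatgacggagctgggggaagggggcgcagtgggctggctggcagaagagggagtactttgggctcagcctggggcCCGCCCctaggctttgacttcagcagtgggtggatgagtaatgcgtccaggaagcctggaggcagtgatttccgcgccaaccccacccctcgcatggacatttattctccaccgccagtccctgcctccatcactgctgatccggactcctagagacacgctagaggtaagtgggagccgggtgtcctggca
Timp2: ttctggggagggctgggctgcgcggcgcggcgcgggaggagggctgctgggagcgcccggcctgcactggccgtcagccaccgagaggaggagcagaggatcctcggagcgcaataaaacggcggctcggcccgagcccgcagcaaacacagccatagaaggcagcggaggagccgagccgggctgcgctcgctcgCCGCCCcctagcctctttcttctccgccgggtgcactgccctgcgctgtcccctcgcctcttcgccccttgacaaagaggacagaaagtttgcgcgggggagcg
Col1a2: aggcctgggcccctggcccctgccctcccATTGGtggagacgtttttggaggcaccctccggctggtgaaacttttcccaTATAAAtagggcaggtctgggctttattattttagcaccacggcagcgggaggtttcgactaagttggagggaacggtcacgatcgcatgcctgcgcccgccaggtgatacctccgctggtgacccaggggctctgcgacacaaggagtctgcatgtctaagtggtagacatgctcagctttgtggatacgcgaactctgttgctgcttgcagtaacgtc

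The window of Thbs4 held the GC box 2 times, and those of Timp1 and Timp2 held it 1 time each. The window of Col1a2 held 1 CCAAT box and 1 TATA box and no GC box. The AP-1 site TGANTCA, which reads the same on the other strand, was in none of these 4 windows. Of 33469 promoters of the same length, 33.1% held the GC box, 37.5% the CCAAT box, 14.2% the TATA box and 7.33% the AP-1 site. A window was given for 50 of the 72 tested members, 32 of which held the GC box. It was given for 6 of the 7 genes higher in distal colon, 5 of which held the GC box. For the genes lower in distal colon it was given for 5 of 6, and 4 held the GC box, so the box did not set the higher genes apart. These matches describe letters in a window and not sites in use.

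Timp1 and Timp2, which encode inhibitors of metalloproteinases, were each about 2-fold higher in distal colon. Timp1 ran from 11.01 to 11.95 (median 11.49) in distal arrays, against 10.09 to 10.84 (median 10.56) in proximal arrays. All distal arrays were above all proximal arrays, and the lowest distal and lowest proximal values both came from rat 3. The difference was 1.01 ± 0.12 (moderated SE, n = 9 each), a 2.01-fold difference (limma adjusted p = 5.21e-06), higher in 9 of 9 rats.

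Timp2 ran from 11.84 to 12.20 (median 12.02) in distal arrays, against 10.35 to 11.40 (median 11.10) in proximal arrays. The distal arrays lay close together, with an SD of 0.11, while the proximal arrays had an SD of 0.31 and rat 6 was the lowest of them. The difference of 1.01 ± 0.10 was again 2.01-fold (limma adjusted p = 4.39e-07). A second Timp2 probe set also passed, with a difference of 0.72 (limma adjusted p = 0.000934). Timp2 was the only member gene with several tested probe sets that all passed: of 18 such genes, 16 had none that passed, 1 had some, and 0 had calls in opposite directions.

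Timp4, another inhibitor of the same family, was chosen for mention after its values were seen. It averaged 7.08 ± 0.17 in distal colon and 6.52 ± 0.28 in proximal colon (SD, n = 9 each), a difference of 0.56 (limma adjusted p = 0.00114) in 9 of 9 rats, with overlap between the regions in the proximal array of rat 4. Timp3, the inhibitor that binds to the matrix itself, did not pass and went with the 3 arrays set apart. It ran from 6.24 to 8.28 (median 6.68) in distal and from 6.41 to 10.29 (median 6.96) in proximal arrays, with a difference of -0.42 ± 0.42 (limma adjusted p = 0.507).

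Thbs4 had the largest difference of all members. It ran from 11.00 to 11.78 (median 11.51) in distal arrays, against 5.58 to 9.01 (median 8.68) in proximal arrays. Its distal values were even, with an SD of 0.23, while the proximal SD was 1.15 because rat 6 at 5.58 and rat 5 at 7.15 fell far below the other proximal arrays. The difference was 3.33 ± 0.35 (limma adjusted p = 7.18e-07). The signal of Thbs4 in the proximal array of rat 3 was 8.08, within the range of the other proximal arrays, although smooth muscle genes were highest in that array. Thbs2, another thrombospondin, averaged 6.15 ± 0.18 in distal and 6.05 ± 0.26 in proximal colon (SD, n = 9 each) and did not pass (difference 0.10, limma adjusted p = 0.576).

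Among the proteases, Adamts15, which cuts proteoglycans such as versican, was the only one of 8 tested Adamts genes that passed. It ran from 8.12 to 8.62 (median 8.36) in distal arrays, against 6.93 to 7.82 (median 7.42) in proximal arrays, with no overlap. The difference was 0.94 ± 0.10, or 1.91-fold (limma adjusted p = 8.06e-07), higher in 9 of 9 rats. Adamts10, which binds fibrillin microfibrils, averaged 7.94 ± 0.43 in distal and 7.87 ± 0.27 in proximal colon (limma adjusted p = 0.779). Adamts1 had a difference of 0.57 ± 0.25 and did not pass over all arrays (limma adjusted p = 0.0954), but passed without rat 3 or rat 8 (limma adjusted p = 0.0456 and 0.0498).

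None of the 9 tested Mmp genes passed over 18 arrays, and 8 Mmp genes had too little signal to be tested, which were Mmp3, Mmp7, Mmp8, Mmp9, Mmp11, Mmp13, Mmp16 and Mmp19. Mmp14, a membrane-bound protease that activates Mmp2 together with Timp2, averaged 9.88 ± 0.45 in distal and 9.74 ± 0.47 in proximal colon (SD, n = 9 each). Its difference was 0.15 ± 0.20 (limma adjusted p = 0.63), smaller than the spread in either region. Mmp15 and Mmp24, also bound to the membrane, had differences of -0.11 ± 0.11 and -0.04 ± 0.14 (limma adjusted p = 0.499 and 0.87). Of the inhibitors 3 of 4 were higher in distal colon, and the difference between the families itself was not tested.

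The glypicans, heparan sulfate proteoglycans anchored to the cell surface, split in direction. Gpc2 ran from 6.94 to 7.76 (median 7.59) in distal arrays, against 8.46 to 9.08 (median 8.70) in proximal arrays. The regions did not overlap, and Gpc2 was lower in distal colon in 9 of 9 rats. The difference was -1.30 ± 0.11 (limma adjusted p = 6.69e-08), a signal 2.46-fold lower.

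Gpc3, which binds Hedgehog ligands, ran from 4.93 to 5.95 (median 5.53) in distal arrays, against 6.01 to 7.25 (median 6.73) in proximal arrays. The gap between the regions was narrow, since the lowest proximal value was that of rat 7 and the highest distal value that of rat 1. The difference was -1.24 ± 0.19 (limma adjusted p = 8.15e-05), again in 9 of 9 rats. The distal mean of 5.47 was below the filter on low signal (5.54), which Gpc3 passed through its proximal mean of 6.71. A second Gpc3 probe set had too little signal to be tested. It ran from 4.20 to 5.36 in distal and from 4.31 to 5.47 in proximal arrays, so it did not show this difference.

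Gpc4 moved the other way. It ran from 8.59 to 9.54 (median 9.31) in distal arrays, against 8.18 to 9.03 (median 8.53) in proximal arrays, and the regions overlapped because the distal array of rat 10 was low. The difference was 0.69 ± 0.12, or 1.61-fold (limma adjusted p = 0.000254). The other 2 tested glypicans did not pass.

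**Figure D1:**
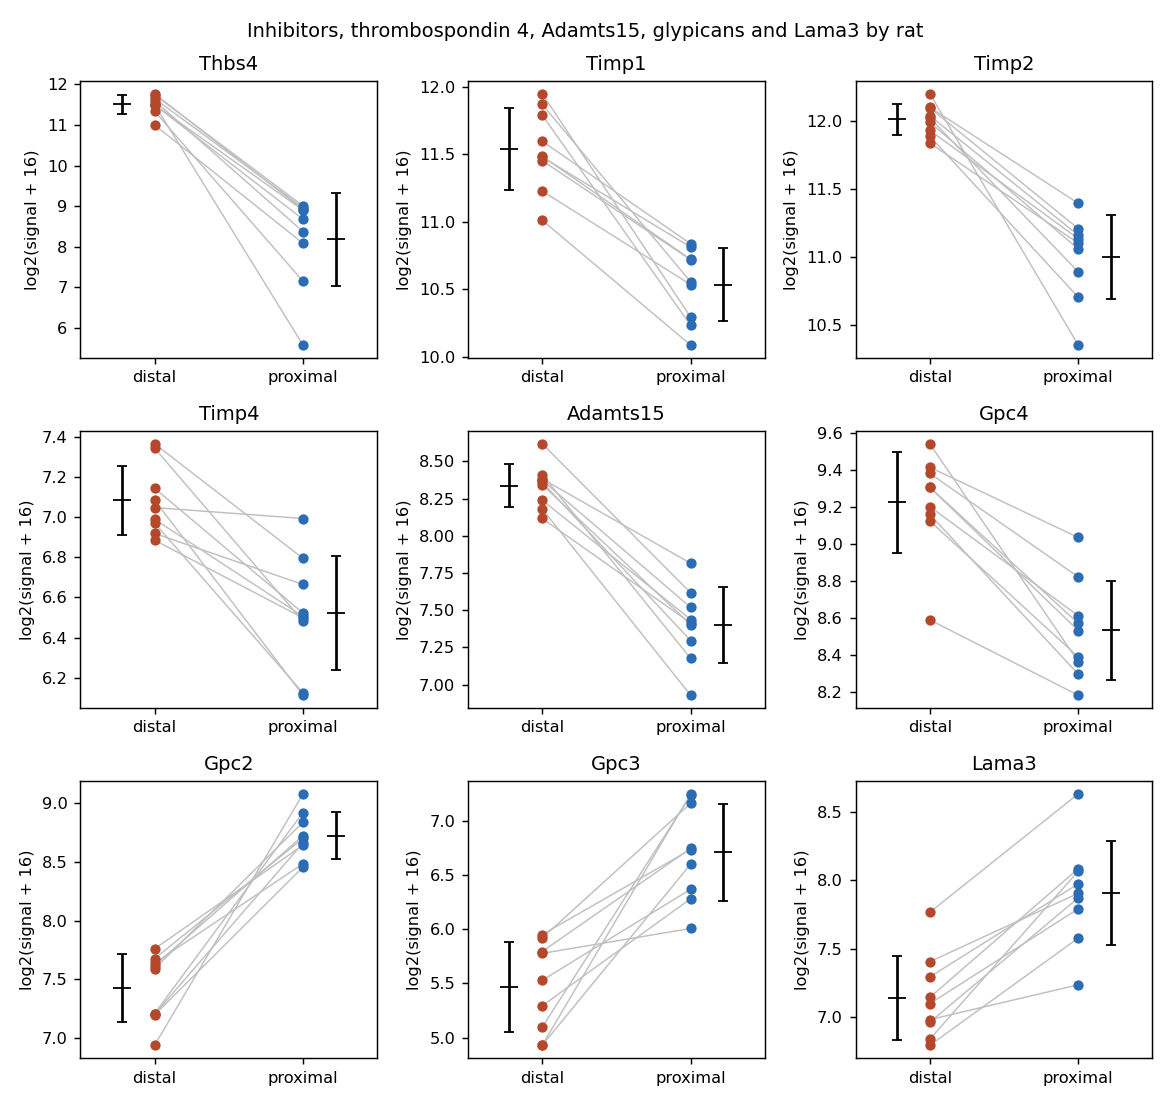
The plot shows log2(signal + 16) of 9 member genes in the distal (red) and proximal (blue) arrays, with a grey line joining the arrays of each rat and, beside each region, a bar for the mean and 1 SD (n = 9). All distal points lie above all proximal points for Thbs4, Timp1, Timp2 and Adamts15 and below them for Gpc2 and Gpc3, and the line of rat 6 is the steepest for Thbs4. Each vertical axis has its own range and does not start at 0.

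Of the 9 laminin chains tested, only Lama3 passed. Lama3 encodes the alpha chain of laminin-332, the laminin of hemidesmosomes, and Lamb3 encodes the beta chain of the same protein. Lama3 ran from 6.80 to 7.77 (median 7.10) in distal arrays, against 7.24 to 8.63 (median 7.91) in proximal arrays, and was lower in distal colon in 9 of 9 rats although the regions overlapped. The difference was -0.76 ± 0.15, a signal 1.69-fold lower (limma adjusted p = 0.00106).

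Lamb3 averaged 10.52 ± 0.22 in distal and 10.56 ± 0.20 in proximal colon (SD, n = 9 each), a difference of -0.04 ± 0.09 (limma adjusted p = 0.783). Among the laminin chains of other basement membranes, Lamb1 had a difference of 0.44 ± 0.27 (limma adjusted p = 0.25), which passed when the rat was taken as a block (limma adjusted p = 0.0482) and when the proximal arrays of rats 3 and 6 were left out (limma adjusted p = 0.0346).

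Col18a1, a basement membrane collagen whose end fragment is endostatin, ran from 5.28 to 7.11 (median 5.88) in distal arrays, against 6.36 to 7.49 (median 6.91) in proximal arrays. The 2 highest distal values, which overlapped with the proximal range, were those of rats 3 and 7. The difference was -0.92 ± 0.22 (limma adjusted p = 0.00478), and its second tested probe set, with a difference of -0.89, did not pass (limma adjusted p = 0.0793). Col20a1, a collagen associated with fibrils, averaged 6.68 ± 0.23 in distal and 6.09 ± 0.41 in proximal colon, a difference of 0.59 (limma adjusted p = 0.00709) that did not pass on the deposited scaling (limma adjusted p = 0.0776). Col23a1, a transmembrane collagen chosen for mention after its values were seen, had a difference of -0.33 (limma adjusted p = 0.0292) and did not pass without rat 1, 5, 6 or 8.

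Many of the other collagens, the small proteoglycans and fibronectin varied widely between arrays of one region. The median SD within a region was 0.49 in distal and 0.57 in proximal colon over the 72 members, against 0.21 and 0.22 over all genes. The spread was widest in the small proteoglycans with fibronectin, where the median SD was 1.41 in distal and 1.53 in proximal colon. In the fibrillar collagens it was 0.98 and 0.89, and in the Timp inhibitors 0.24 and 0.30.

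**Figure D2:**
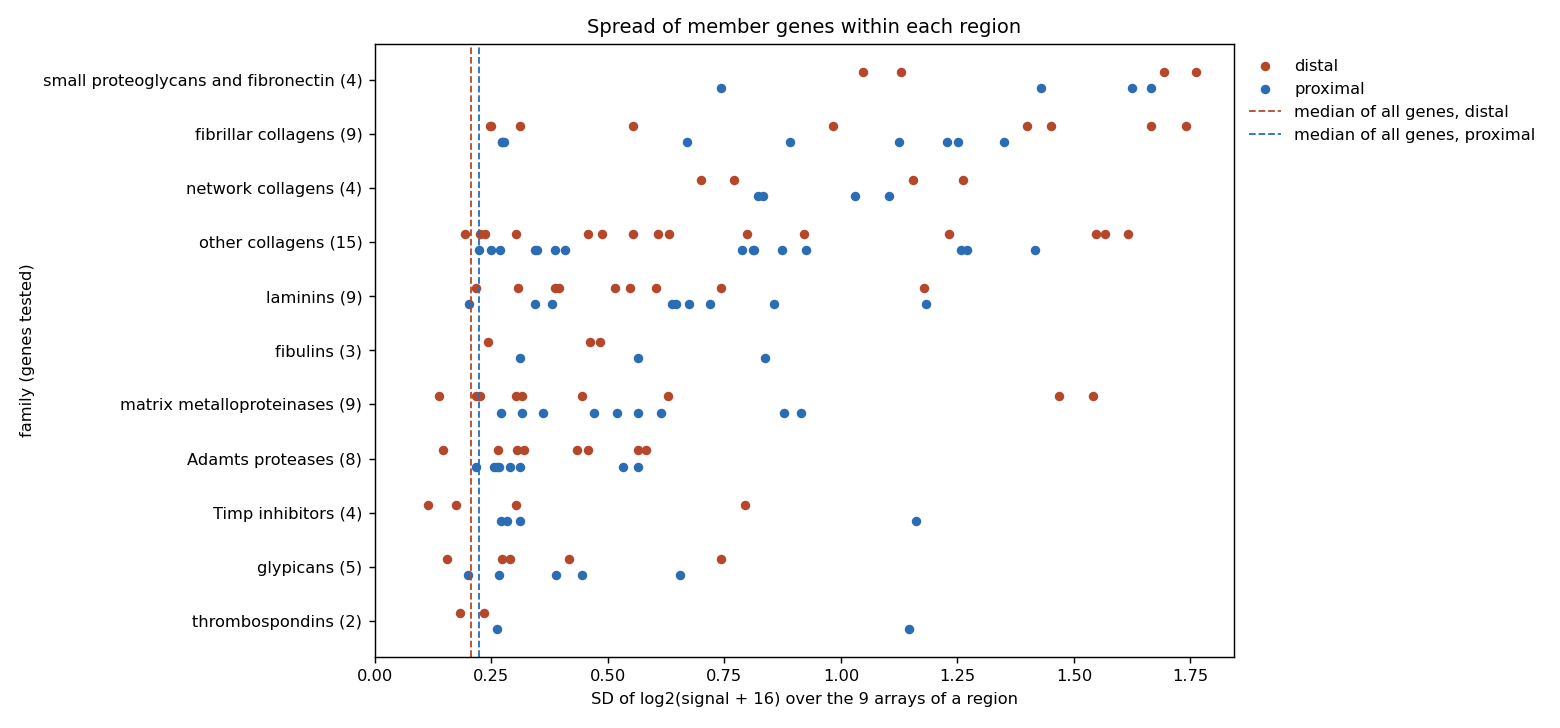
Each point is a member gene, placed by the SD of its log2(signal + 16) over the 9 arrays of distal (red) or proximal colon (blue), by family, with dashed lines at the medians over all genes, 0.21 and 0.22. The small proteoglycans, fibrillar and network collagens reach far to the right, and the isolated proximal points at 1.15 among thrombospondins and 1.16 among Timp inhibitors are Thbs4 and Timp3.

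Col3a1, the chain of the fibrillar collagen III, followed the 3 arrays set apart. It ran from 7.56 to 12.41 (median 8.63) in distal arrays, against 7.57 to 12.47 (median 10.01) in proximal arrays. The 3 highest values, 11.73 and 12.41 in the distal arrays of rats 3 and 7 and 12.47 in the proximal array of rat 3, came from the arrays with high smooth muscle signal. The difference was -0.77 ± 0.64 and did not pass (limma adjusted p = 0.412). Col1a1 and Col1a2, the chains of collagen I, had differences of -0.42 ± 0.54 and -0.49 ± 0.64 (limma adjusted p = 0.618 and 0.624).

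The same 3 arrays were the highest 3 of 18 for 27 of the 72 member genes, or 37.5%, and for 3.13% of all genes. These were 4 of 4 tested network collagens, 3 of the 4 small proteoglycans with fibronectin, 5 of 9 fibrillar collagens, 8 of 15 other collagens, 4 of 9 laminins, 2 of 9 Mmp genes and 1 of 4 Timp genes, and 0 of the fibulins, glypicans, thrombospondins and Adamts genes. None of the 27 passed over 18 arrays. Proximal rat 3 alone was the highest of 18 arrays for 35 members.

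**Figure D3:**
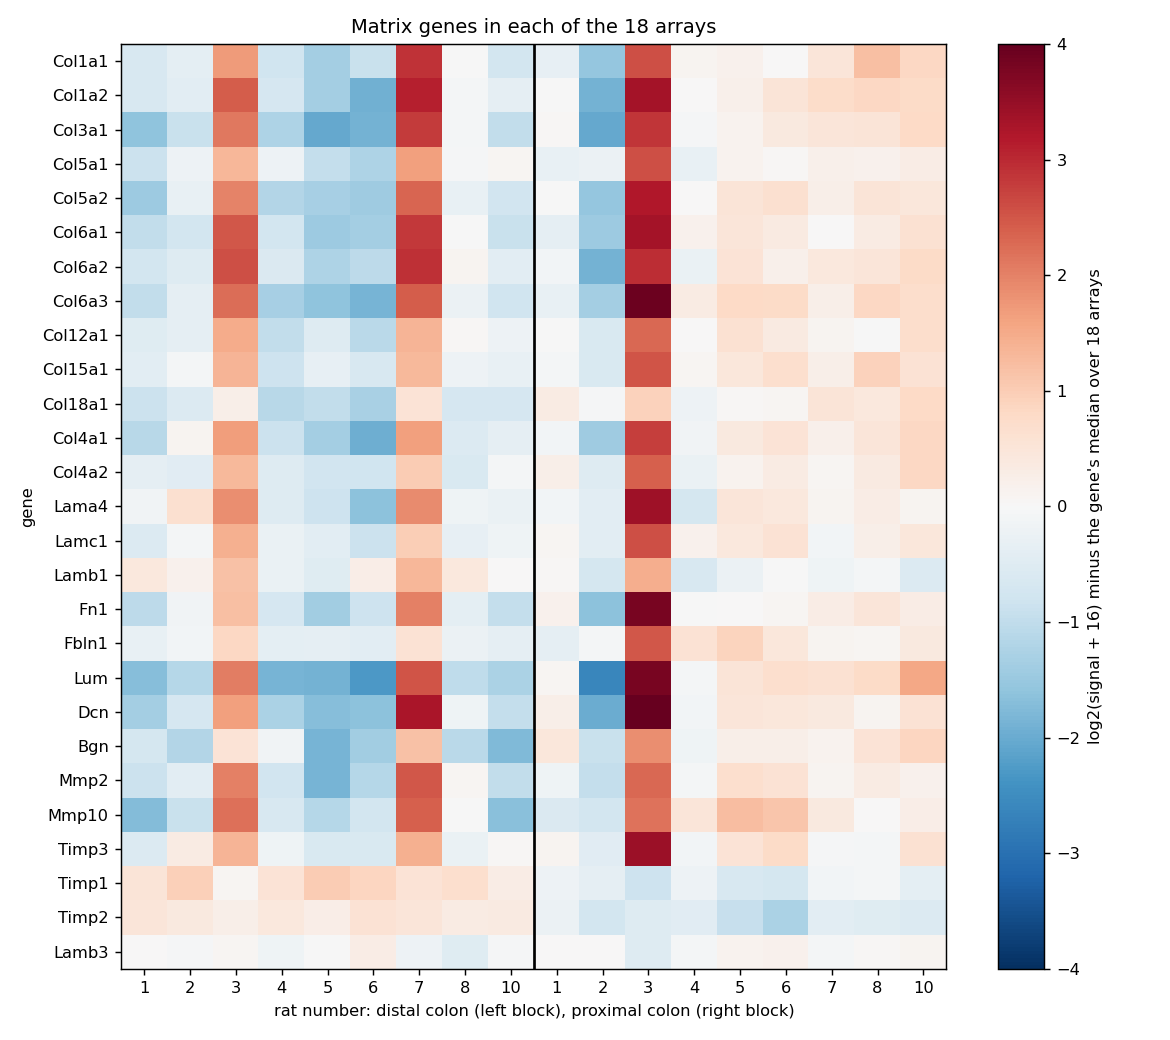
Colours give log2(signal + 16) minus the gene's median over 18 arrays, with red above and blue below the median, for 27 member genes chosen after their values were seen (rows) in the arrays of each rat (columns), distal colon left of the line and proximal colon right of it. The columns of distal rats 3 and 7 and of proximal rat 3 are red from Col1a1 down to Timp3, and proximal rat 2 is blue in most of these rows. The rows of Timp1 and Timp2 differ by region instead.

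Markers of other cells moved with these genes. The summed signal of the 19 smooth muscle genes was 23791 and 23968 in the distal arrays of rats 3 and 7 and 102535 in the proximal array of rat 3, against 7413 to 8911 in the other distal and 6719 to 12388 in the other proximal arrays. That of 11 fibroblast genes was 7628, 7319 and 14095 in the same 3 arrays, against 827 to 1832 in the other distal and 659 to 4041 in the other proximal arrays. Over 18 arrays 0 of the 19 and 0 of the 11 genes passed, and their medians were -0.33 and -0.34. Without the 3 arrays, 2 of the smooth muscle genes were higher and 2 lower in distal colon (median -0.40), and 0 of the fibroblast genes were higher and 4 lower (median -0.60). Over all genes 15.1% were higher and 15.5% lower in that fit. The part of these markers in the result was not tested. The proximal array of rat 2 had the lowest sum of both lists among proximal arrays, 6719 and 659.

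Leaving out these 3 arrays, a choice made after the values were seen, left 7 distal and 8 proximal arrays. Over these 15 arrays 23 member genes were lower in distal colon, or 31.9% of the 72, against 15.5% of all genes, and 7 were higher, or 9.72%, against 15.1%. By probe set, 28 were lower and 8 higher (12.9% and 13.3% of all probe sets). All 6 genes lower and all 7 higher over 18 arrays were among them. Some markers of other cells were lower in the same fit. They included 4 of 11 fibroblast genes, among them Pdgfra, a growth factor receptor, at -1.22 (limma adjusted p = 0.00522) and Cxcl12, a chemokine, at -1.20 (limma adjusted p = 0.0349). In endothelium 2 of 13 were lower, Plvap at -1.05 (limma adjusted p = 0.011) and Eng at -0.75 (limma adjusted p = 0.00775), and 2 of 10 macrophage genes were lower. Endothelium and macrophages also had 1 higher gene each, Esam at 0.95 (limma adjusted p = 4.6e-05) and Cd14 at 0.59 (limma adjusted p = 0.0012). The part of all these markers in the lower matrix signal was not tested. Of the 28 tested collagens, 12 were lower over 15 arrays and 2 over 18. As 2 of the arrays left out were distal and 16 of the 23 genes had the 3 arrays as their highest, the omission by itself lowers the distal mean of these genes. Of the 23 genes, 22 were also lower when both arrays of rats 3 and 7 were left out, where 14.6% of all genes were lower. With the rat as a block as well 20 were lower, where 16.5% of all genes were. Beyond the 3 arrays, these fits left out only the proximal array of rat 7, so they are not independent of the fit over 15 arrays. Fn1 was the gene that did not pass without these 4 arrays (limma adjusted p = 0.0816), and Fn1, Col4a1 and Col6a5 did not pass with the block as well (limma adjusted p = 0.11, 0.0742 and 0.0568).

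Lum, which encodes lumican, had the largest of these differences. In the 7 distal arrays left it ran from 5.56 to 6.82 (median 6.14), against 5.25 to 9.40 (median 8.42) in the 8 proximal arrays. All but 1 of the proximal arrays were above all distal ones, and the exception was that of rat 2, the lowest array of both regions. The difference was -1.79 ± 0.43, a signal 3.45-fold lower (limma adjusted p = 0.00562), where over 18 arrays it was -1.33 ± 0.73 (limma adjusted p = 0.192). Dcn, which encodes decorin, had a difference of -1.13 (limma adjusted p = 0.0176) over 15 arrays, where over 18 arrays it was -0.81 (limma adjusted p = 0.432).

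Bgn, the biglycan gene, was lower in both. Over 18 arrays it averaged 6.40 ± 1.05 in distal and 7.47 ± 0.74 in proximal colon (SD, n = 9 each), with a difference of -1.07 ± 0.39 (limma adjusted p = 0.0472). It was lower in 7 of 9 rats, and it did not pass without rat 1, 5, 6, 8 or 10, where the adjusted p reached 0.134. Over 15 arrays the difference was -1.34 (limma adjusted p = 0.00113).

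Col3a1 in the 15 arrays ran from 7.56 to 9.53 (median 8.40) in distal colon, against 7.57 to 10.41 (median 9.89) in proximal colon. The proximal arrays other than that of rat 2 were all above the distal ones. The difference was -1.28 (limma adjusted p = 0.0141). Col6a3, a chain of the beaded collagen VI, had a difference of -1.28 (limma adjusted p = 0.00661) and Col6a1 one of -0.90 (limma adjusted p = 0.0198). Col5a2, a minor fibrillar chain, had one of -1.07 (limma adjusted p = 0.0114).

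Both chains of the common collagen IV network passed over 15 arrays, with differences of -0.96 for Col4a1 (limma adjusted p = 0.031) and -0.66 for Col4a2 (limma adjusted p = 0.0064). Over 18 arrays neither passed without a block, and Col4a2 passed with it (limma adjusted p = 0.0491). Lamc1, the gamma chain of most laminins, had a difference of -0.56 (limma adjusted p = 0.00863), and its second tested probe set, at -0.21, did not pass (limma adjusted p = 0.228). Fn1, which encodes fibronectin, had a difference of -0.73 (limma adjusted p = 0.0486). Col1a1 and Col1a2 did not pass, with differences of -0.81 (limma adjusted p = 0.0609) and -0.92 (limma adjusted p = 0.0653), though a second Col1a2 probe set passed at -0.88 (limma adjusted p = 0.0361). Fbln1, which encodes the matrix glycoprotein fibulin-1, passed over 15 arrays with a difference of -0.57 (limma adjusted p = 0.00885) and over 18 only with the rat as a block (limma adjusted p = 0.0345).

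Mmp10 and Mmp2, a stromelysin and a gelatinase, were the only Mmp genes lower over 15 arrays. Mmp10 ran from 4.91 to 6.63 (median 5.75) in the 7 distal arrays, against 5.92 to 7.87 (median 6.99) in the 8 proximal arrays. It was lower in distal colon in 7 of the 7 rats left, with a difference of -1.25 (limma adjusted p = 0.00579). Mmp2 had a difference of -0.93 (limma adjusted p = 0.0123), while its second tested probe set had one of -0.02 (limma adjusted p = 0.946), so that the 2 probe sets disagreed. In 16 of the 23 genes proximal rat 2 was the lowest of the 8 proximal arrays.

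**Figure D4:**
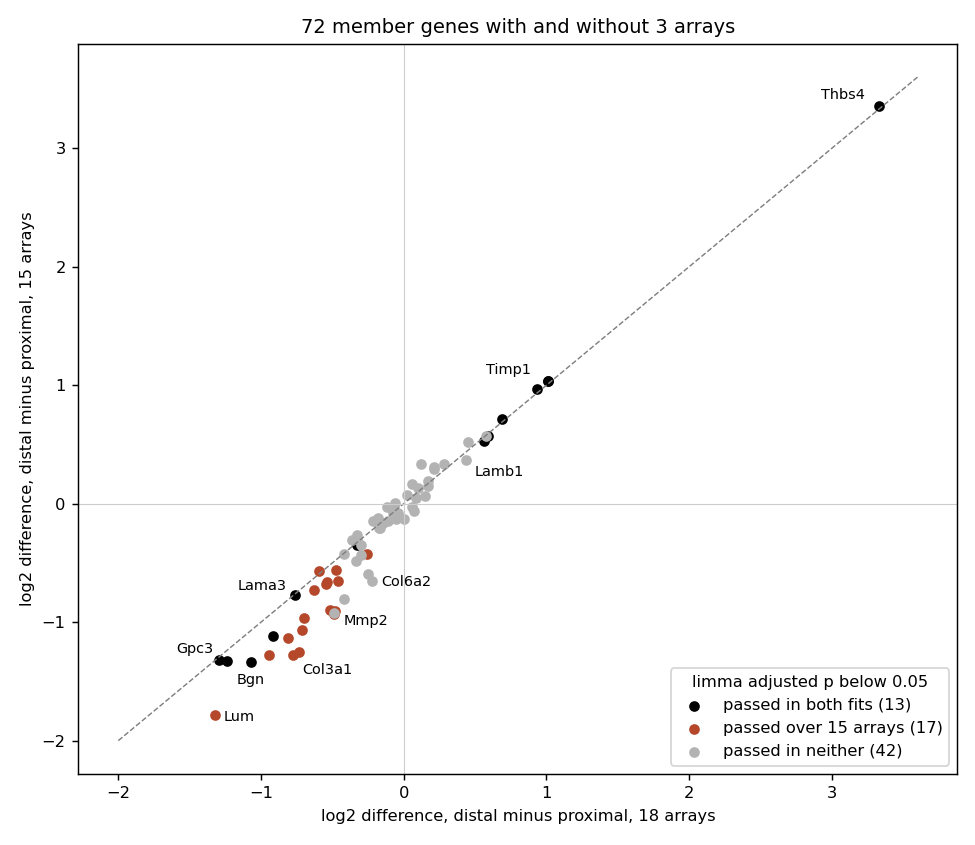
Each point is 1 of the 72 member genes, with its log2 difference (distal minus proximal) over all 18 arrays on the horizontal axis and over the 15 arrays of lower smooth muscle signal on the vertical axis, and a dashed line where both are equal. The 13 black genes passed in both fits and the 17 red ones over 15 arrays only. The red points are all negative and most lie below the line, while the higher genes stay on it.

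Genes that work with these proteins were read from lists. The counts stand beside all genes, of which 16.2% were higher and 14.5% lower over 18 arrays. Over 15 arrays these shares were 15.1% and 15.5%. Of 27 tested partners of the interstitial matrix, 1 was higher and 2 lower over 18 arrays, with a median of -0.52, and 2 were higher and 14 lower over 15 arrays. Prelp, a small proteoglycan related to lumican, was higher by 1.36 (limma adjusted p = 3.37e-05), while Mfap2, a microfibril protein, and Smoc2, a calcium-binding matrix protein, had differences of -0.78 and -0.55 (limma adjusted p = 0.015 and 0.0437). Smoc2 did not pass over 15 arrays (limma adjusted p = 0.0623). Of 6 tested basement membrane partners 0 passed over 18 arrays and 3 were lower over 15. The collagen-modifying enzymes had 1 of 16 higher and 3 lower, or 1 and 5 over 15 arrays. The lysyl hydroxylase Plod1 had a difference of -0.91, the prolyl hydroxylase subunit P4ha1 one of -0.53 and the collagen export receptor Mia3 one of -0.27 (limma adjusted p = 0.000905, 0.00055 and 0.000725), each lower in 9 of 9 rats. Mia3 did not pass on the mean of its probe sets (limma adjusted p = 0.0875).

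Of 22 matrix receptors, 3 were higher and 3 lower, with the same counts over 15 arrays. Cd44, a hyaluronan receptor, averaged 7.14 ± 0.39 in distal and 8.84 ± 0.52 in proximal colon (SD, n = 9 each), a difference of -1.70 (limma adjusted p = 2.91e-06). The integrin chains Itgb3 and Itga7 had differences of -1.04 and -0.60 (limma adjusted p = 0.0212 and 0.00427), and Itgb3 did not pass without rat 4, 5, 8 or 10. Itga7 did not pass on the mean of its probe sets (limma adjusted p = 0.0758). The 3 higher genes were the integrin chains Itga3, Itga6 and Itgb4, by 0.44, 0.28 and 0.36 in 9 of 9 rats. They did not pass on the deposited scaling (limma adjusted p = 0.0571, 0.375 and 0.19).

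Of 26 other matrix-acting proteases and inhibitors, 8 were higher and 1 lower over 18 arrays, and 7 and 6 over 15. Serpinb2, an inhibitor of plasminogen activators, was higher by 1.39, Adamtsl5, an Adamts-like protein without a protease domain, by 1.09 and Adam15, a membrane-bound disintegrin protease, by 0.93 (limma adjusted p = 1.28e-05, 2.48e-05 and 2.58e-05). The proximal mean of Serpinb2, 5.15, was below the filter on low signal (5.54), which Serpinb2 passed through its distal mean of 6.54. Mep1a, the alpha subunit of the epithelial protease meprin, had a difference of -0.46. In TGF beta signalling 3 of 19 genes were higher and 0 lower over 18 arrays, and 2 and 0 over 15. The differences were 0.43 for Skil, 0.23 for Tgfbr1 and 0.13 for Smad4, none of which passed on the deposited scaling. Smad4 did not pass over 15 arrays (limma adjusted p = 0.0764). On the mean of a gene's probe sets, Tgfbr1 and Smad4 did not pass (limma adjusted p = 0.187 and 0.295).

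The remaining marker lists differed in their share of genes that passed over 18 arrays, where 16.2% of all genes were higher and 14.5% lower. In endothelium 1 of 13 genes was higher and 0 lower, in lymphatic endothelium 0 of 5 and 1, in macrophages 1 of 10 and 0, in lymphocytes 0 of 10 and 1, in glia and neurons 0 of 5 and 0, in interstitial cells of Cajal 1 of 4 and 1, and in mesothelium 0 of 3 and 0. Over 15 arrays the counts higher and lower were 1 and 2 in endothelium, 1 and 1 in lymphatic endothelium, 1 and 2 in macrophages, 0 and 1 in lymphocytes, 0 and 0 in glia and neurons, 1 and 1 in interstitial cells of Cajal and 1 and 0 in mesothelium. Both tested neutrophil genes, S100a8 and S100a9, were higher in distal colon, by 1.04 and 1.11. The proximal mean of S100a8, 5.43, was below the filter on low signal (5.54), which S100a8 passed through its distal mean of 6.47. In epithelium 2 of 20 were higher and 8 lower, or 1 and 8 over 15 arrays, and its summed signal was lower in distal colon in 9 of 9 rats. Car1 and Car2 had the largest negative differences of this list, -2.49 and -1.16. Epcam, Cdh1, Krt8, Krt19 and Lgals4 were among those that did not pass, at -0.06, -0.06, 0.04, 0.02 and -0.01. Whether the regions held different amounts of epithelium was not tested. The part of these lists in the differences of the members was not tested.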

How the data were processed

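The authors deposited linear probe set intensities for 18 arrays as 1 table. MAS5 made them, per the submitters' processing notes; its version and target scale are not stated in the sources used here. Trimmed means differed up to 1.62-fold between arrays, so log2(value + 16) was quantile-normalized, which also removes any overall shift between regions. A fold on this scale understates the change of genes with low signal. Of 31099 probe sets, 57 controls were left out, as were the 30% with the lowest mean (log2 below 5.54), which left 21729. Names came from the array annotation, which can be old: 20826 probe sets had 1 symbol, 436 several and 9780 were unnamed here. All 139 member probe sets matched a RefSeq gene table (GRCr8), which changed 0 symbols.

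The regional difference (distal minus proximal) was tested with limma 3.58.1 in R 4.3.3 (lmFit, eBayes with intensity trend), without a block, two-sided, with Benjamini-Hochberg adjustment over all tested probe sets, and was checked on simulated data. Errors after ± are limma's moderated standard errors unless called SD. Python 3.11.15, numpy 2.4.6, pandas 2.3.3 and matplotlib 3.10.9 were used. A list's summed signal is the sum over its tested genes, by the probe set with the highest mean.

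Arrays of 1 number pair, as they came from 1 animal, per the labels. Deviations from the region means correlated between a rat's arrays with r from 0.000945 to 0.569 (median 0.226, over 0.1 for 6 of 9), and with a median r of -0.03 for arrays of different rats. No 2 arrays shared over 0.00644% of their values. Members, lists and tests were chosen with earlier results of these data known. Genes named are those that passed with at least 1.5-fold, the 10 of highest signal, the highest of each family and up to 3 per list. The epithelial genes Car1, Car2, Epcam, Cdh1, Krt8, Krt19 and Lgals4 were named after their values were seen. Timp3, Timp4, Col1a1, Col1a2, Col4a2, Col5a2, Col6a3, Col6a5, Col23a1, Lamc1, Lum, Dcn, Mmp2, Mmp10, Adamts1, Thbs2, Itga3, Itga6, Itgb4, Mep1a, S100a8, S100a9, Pdgfra, Cxcl12, Plvap, Eng, Esam, Cd14 and further genes of the closing section were named after their values were seen. Alternatives were other scalings, pseudocounts, filters, no trend, the rat as a block, each rat left out, the mean of a gene's probe sets, and leaving out 2 proximal arrays (rats 3 and 6). Added later were fits without the 3 arrays of high smooth muscle signal and without rats 3 and 7.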

Additional observations from a re-analysis of the deposited data

Results flagged for a closer look

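Within each region, the gap of the highest or lowest array to the next was divided by the range of the 9 arrays, and values above Dixon's critical value for 9 arrays are given here. Of 76 groups of arrays examined, 14 exceeded it. Chance gives about 1 in 20 in groups not chosen by their values, a rate that does not apply to this count, because 16 of the 38 members were named after their values were seen and gave 8 of the 14, and the members share their arrays. In 12 of them the proximal array of rat 3 was the highest. The share of the range was 0.570 for Col6a1, 0.560 for Fbln1, 0.609 for Fn1, 0.655 for Lamb1, 0.690 for Timp3, 0.540 for Col5a2, 0.586 for Col6a3, 0.5385 for Col4a2, 0.669 for Lamc1, 0.708 for Lama4, 0.590 for Dcn and 0.502 for Mmp2. Fn1, for example, had 11.55 in that array and 6.09 to 8.23 in the other proximal arrays. The same array was the lowest for Lamb3, at 10.07 against 10.50 to 10.75 in the other proximal arrays (0.628). The distal array of rat 10 was the lowest for Gpc4, at 8.59 against 9.12 to 9.54 in the other distal arrays (0.562).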

How the results depend on the processing

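The 38 named members had 829 values over 22 other settings. Of these 771 stayed on their side of the threshold, 15 no longer passed, 43 newly passed and 0 passed in the opposite direction. For 25 of the named genes of other lists, 498 of 545 values stayed, 36 no longer passed, 11 newly passed and 0 were opposite. With the lowest 50% of probe sets left out, 49 member probe sets and 41 genes were tested, of which 7 and 6 were higher and 3 and 3 lower. Of all 15521 probe sets in that setting, 2865 were higher and 2338 lower. Without the 3 arrays of high smooth muscle signal, chosen after seeing the data, 28 probe sets and 23 genes were lower. Without both arrays of rats 3 and 7 these counts were 26 and 22, and 24 and 20 with the rat as a block as well. On the deposited scaling, 3426 of all tested probe sets passed, against 5762, and 23.0% of them were higher in distal colon, against 53.9%. Among member probe sets that passed, 50% were higher there, against 57.1%. The median over all tested probe sets was -0.09 on that scaling and 0.03 after quantile normalization, so small differences depend on it.

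With the replicate block (rat), 9 member probe sets were higher and 9 lower, and 8 genes each way. Fbln1, Lamb1 and Col4a2 newly passed and no member call was lost. Leaving out each rat in turn gave 8 to 10 member probe sets higher and 4 to 7 lower, 7 to 9 genes higher and 4 to 6 lower, and 10 to 11 of the 22 members named by rule past the threshold. Over all probe sets it gave 4832 to 6004. Bgn did not pass under median centring (adjusted p = 0.0507), pseudocount 64 (0.0632), no filter (0.0619), no trend (0.054) or with the proximal arrays of rats 3 and 6 left out (0.113), and its adjusted p ran from 0.00113 to 0.134. Smoc2 did not pass without rat 1, 2, 5, 7, 8 or 10, Smad4 without rat 4, 7 or 10, Mfap2 without rat 8 and Tgfbr1 without rat 5. The causes were not tested. Signals near the filter have no background estimate here, so low members are least certain.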

Other observations

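Some members below the filter on low signal passed when no filter was set, where 12.5% of all 14217 genes were higher and 11.5% lower in distal colon. Col17a1, a transmembrane collagen of hemidesmosomes, averaged 6.12 ± 0.38 in distal and 4.93 ± 0.62 in proximal colon (SD, n = 9 each). It was higher in 9 of 9 rats, with a difference of 1.19 (limma adjusted p = 0.000926), although its ranges of 5.53 to 6.71 and 4.14 to 5.72 overlapped. Mmp7, known as matrilysin, averaged 4.75 ± 0.49 in distal and 4.25 ± 0.09 in proximal colon, a difference of 0.49 (limma adjusted p = 0.0348) in 7 of 9 rats. A second Adamts9 probe set had a difference of -0.85 (limma adjusted p = 0.00949), lower in 9 of 9 rats, and 1 of the Timp3 probe sets one of -0.59 (limma adjusted p = 0.00667). The probe sets with the highest signal of Adamts9 and Timp3 did not pass (limma adjusted p = 0.645 and 0.556 without the filter). At such signals the pseudocount of 16 makes up much of the value.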
